A study of Sus scrofa with 13 samples.

Results

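The B cell and plasma cell genes of the pig outflow vein were 9 protein-coding genes that mark the antibody-making lineage: CD22, MS4A1, CD79A, CD79B, PAX5, BLK, POU2AF1, JCHAIN and MZB1. They were chosen by gene symbol from the 20288 protein-coding rows of a deposited table of 30477 rows. The table gave the symbol for 8 of them. The row of MS4A1 (ENSSSCG00000021812) carried no symbol and was named from a reference list of gene identifiers. The libraries came from the vein that drains an arteriovenous fistula, an artery joined to a vein for haemodialysis access. The vehicle group (5 libraries) was given a hydrogel with PLGA, a polymer that degrades in the body, and the 1,25 NP group (8 libraries) was given what the labels call 1,25 NP in the same PLGA and hydrogel, NP being left unexplained there. The series compares 1,25-dihydroxyvitamin D3, the hormonal form of vitamin D, with vehicle. The sources used here give no breed, age, genotype or time of harvest that applies to pigs. The comparison asked whether transcripts of the vein differed between hormone-treated and vehicle veins.

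B cells recognise antigen through a membrane immunoglobulin whose signal is passed on by the CD79A and CD79B chains. After activation some of them become plasma cells, which lose much of the B cell surface programme, enlarge the endoplasmic reticulum and secrete antibody. The vitamin D receptor is present in activated lymphocytes, and the hormone is known from cultured human B cells to restrain their maturation into plasma cells.

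Values are RPKM, reads scaled to gene length and to the library total, so levels can be set side by side between genes. Library totals ran from 30261776 to 50271231 reads, and 12970 to 14686 rows of a library lay above 0.5 RPKM. Libraries are named by the code in the deposited header, whose letter F or M is read here as sex: 3 females and 2 males in the vehicle group, 3 females and 5 males in the 1,25 NP group. Nothing in the labels says that each library is a separate animal, so p-values measure the spread between these libraries. Markers of the vein wall were present in every library, with a summed level of 314 to 5447 RPKM for 5 smooth muscle genes and 93.2 to 203 RPKM for 5 endothelial genes. Tissue RNA was sequenced in bulk, so fewer cells of a type and less RNA per cell cannot be told apart.

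No gene of the list passed the comparison of 1,25 NP with vehicle veins, and the levels of all 9 overlapped between the groups. Across libraries the list was low and uneven. The mean over the 13 libraries was 31.4 RPKM for CD79A, 3.42 for CD22, 3.40 for JCHAIN, 1.06 for BLK, 0.558 for MS4A1, 0.544 for MZB1, 0.241 for CD79B, 0.136 for POU2AF1 and 0.0876 for PAX5. Neighbours in this order were often not separated: CD22 exceeded JCHAIN in 8 of 13 libraries, with a mean difference of 0.0144 RPKM (SD 2.14), and MS4A1 exceeded MZB1 in 6 of 13. CD79A exceeded CD22 in all 13 libraries and JCHAIN exceeded BLK in 12 of 13. The coefficient of variation over libraries ran from 62.9% for CD22 to 199.99% for PAX5 in 8 of the genes, and was 17.8% for CD79A.

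**Figure D1:**
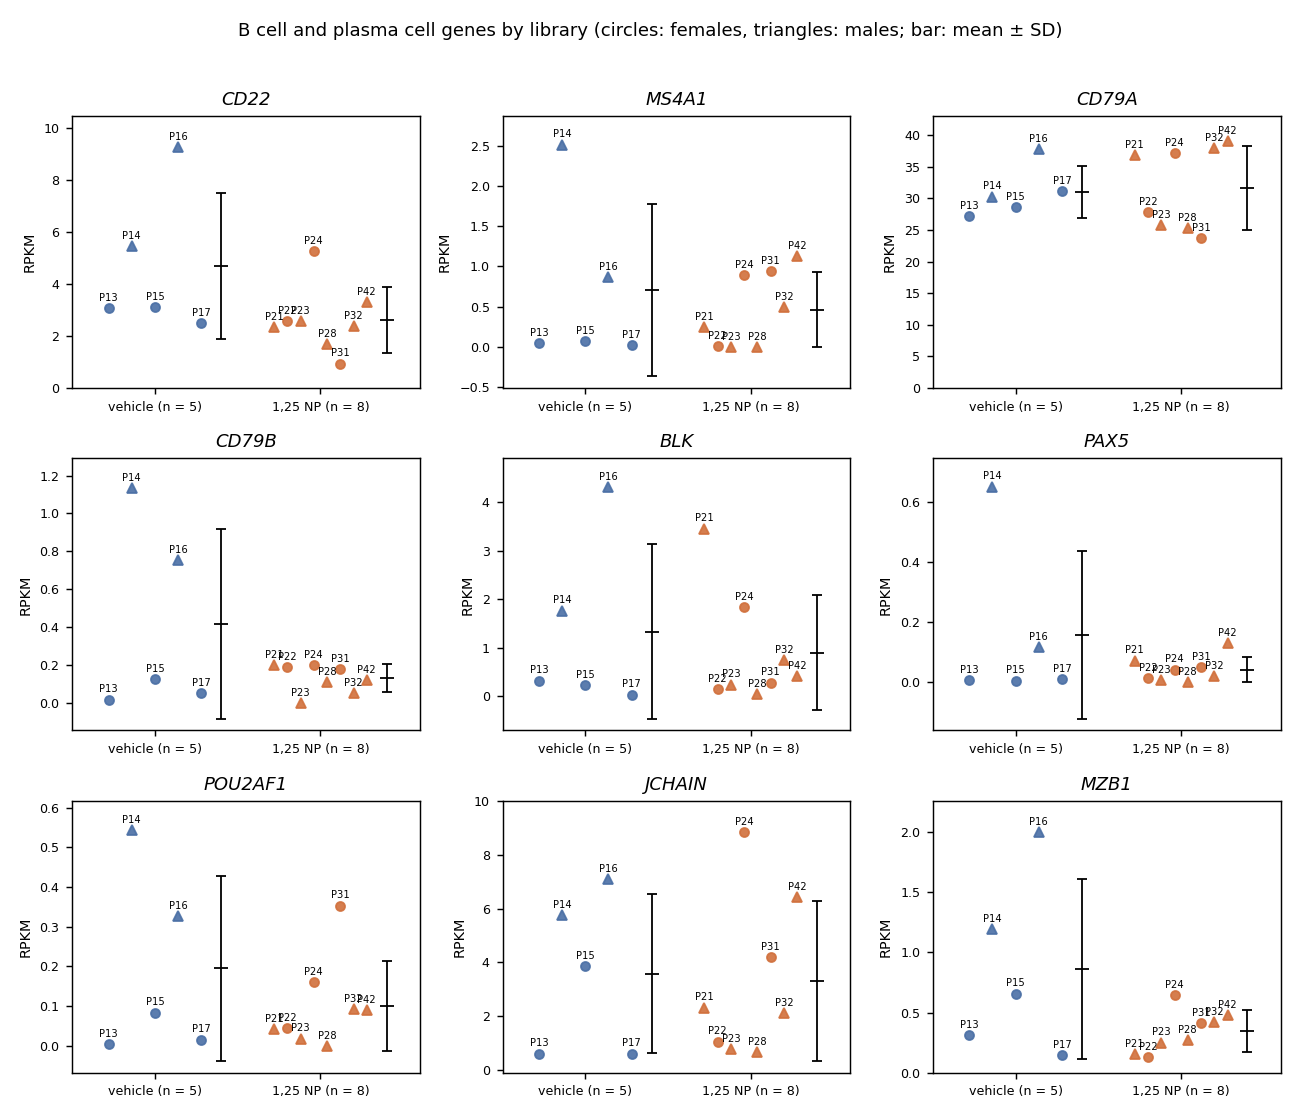
RPKM of the 9 genes in each library (vertical axes, a separate linear scale per gene), with the 5 vehicle libraries in blue and the 8 1,25 NP libraries in orange, circles for females, triangles for males, and bars for the mean ± SD of each group. In 8 panels the vehicle males P14 and P16 lie above all 3 vehicle females, while CD79A stays between 23.7 and 39.1 RPKM in every library.

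The CD79A row, meant for one signalling chain of the B cell receptor, differed from the other 8 in level and in spread. It read 27.1, 30.2, 28.6, 37.8 and 31.1 RPKM in vehicle libraries P13 to P17, and 23.7 to 39.1 (median 32.3) in 1,25 NP libraries. No library stood apart, and the highest value was 1.65 times the lowest. Its partner chain CD79B, with which it forms a dimer, had a mean of 0.241 RPKM. In the coordinates of the file (of an unstated build) the CD79A row (ENSSSCG00000033684) lies on chromosome 6 from 49975957 to 50010059. Over that stretch lie the row of ARHGEF1 (49975876 to 49995140), and an unnamed protein-coding row, ENSSSCG00000003042 (50000219 to 50009592). The row of DMRTC2 (49871136 to 50016315) also covers it, with 0 to 3 reads per library. In the RefSeq annotation of assembly Sscrofa11.1 the neighbours of CD79A are ARHGEF1 and RPS19, a ribosomal protein gene. The unnamed row had a mean of 111 RPKM and 11880 to 30096 reads per library, beside 5372 to 11527 reads for CD79A. Over the 13 libraries the log2 level of the CD79A row had a Pearson correlation of 0.75 (Spearman 0.83) with the unnamed row and of -0.19 (Spearman -0.37) with ARHGEF1, given as a description of overlapping rows. Which reads of this stretch come from CD79A was not tested, so its level is uncertain, and summaries of the list are also given without it.

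**Figure D2:**
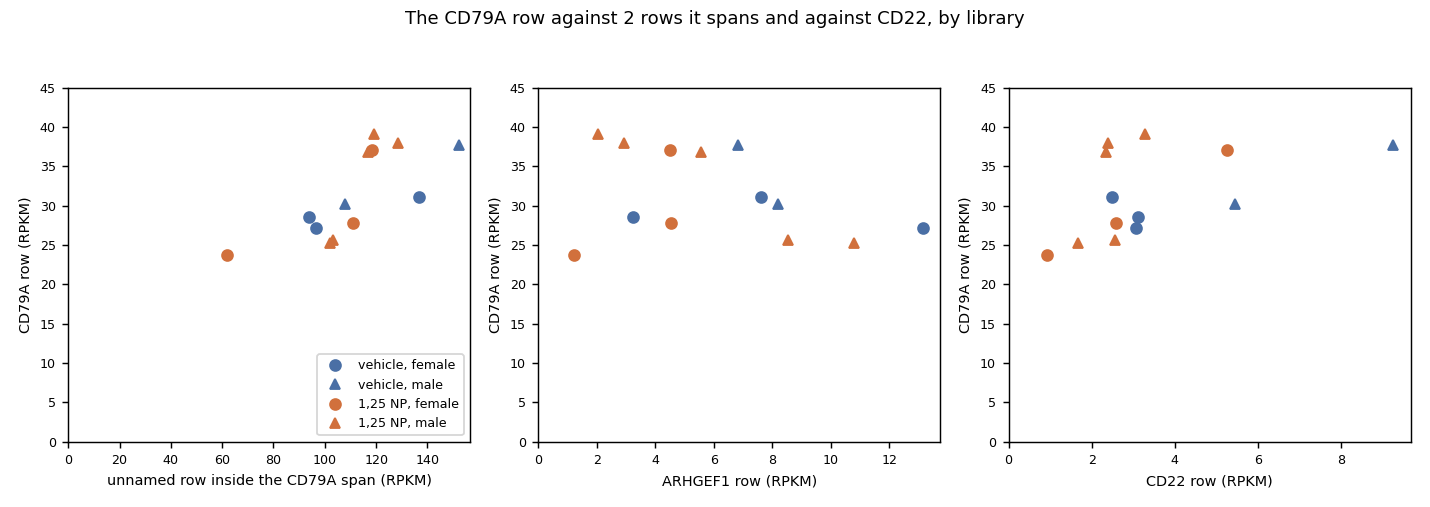
RPKM of the CD79A row (vertical axes) in each of the 13 libraries against the unnamed row inside its span, against ARHGEF1 and against CD22 (horizontal axes, linear), coloured by group with circles for females and triangles for males. The CD79A row follows the unnamed row (Pearson 0.75 on the log2 scale) and stays within 23.7 to 39.1 RPKM while CD22 runs from 0.936 to 9.26.

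Of the other surface and signalling genes, CD22 had the largest group difference among the 5 genes that could be fitted. CD22 (ENSSSCG00000002893, chromosome 6, 44820683 to 44835956) is a sialic acid-binding receptor that dampens B cell receptor signals. It read 3.07, 5.44, 3.12, 9.26 and 2.49 RPKM in vehicle libraries P13 to P17, and 0.936 to 5.25 (median 2.48) in 1,25 NP libraries. The vehicle males P14 and P16 were the high libraries of their group, and 7 of 8 treated libraries lay below the vehicle mean. The vehicle mean was 4.68 ± 2.80 RPKM (SD, n = 5) and the treated mean 2.63 ± 1.27 (SD, n = 8). The log2 difference of RPKM + 0.5, treated minus vehicle, was -0.68 (SE 0.34, 95% interval -1.41 to 0.055; limma, adjusted p = 0.795 over 14579 rows). The interval included 0 and the ranges overlapped.

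MS4A1, which encodes the B cell surface protein CD20, split into libraries with and without appreciable signal in both groups. It read 0.0515, 2.51, 0.0751, 0.872 and 0.0205 RPKM in vehicle libraries P13 to P17, and 0 to 1.13 (median 0.373) in 1,25 NP libraries. P14 and P16 were high and the 3 vehicle females were near the detection limit. Among treated libraries P24, P31 and P42 lay at 0.893, 0.939 and 1.13 RPKM, and P23 and P28 had no read, which allows levels of up to 0.0356 and 0.0384 RPKM at 3 reads (counting error only). The log2 difference was -0.10 (SE 0.45, 95% interval -1.06 to 0.87; limma, adjusted p = 0.939). It turned to 0.33 without P14 and was also above 0 without P16, P22, P23 or P28. It was -0.22 with sex as covariate and -1.23 in voom with quality weights.

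BLK, a Src family kinase that acts below the B cell receptor, was also uneven in both groups. Its vehicle values were 0.317, 1.76, 0.230, 4.31 and 0.0282 RPKM in P13 to P17, and its treated values ran from 0.0422 to 3.46 (median 0.348). P14 and P16 were again high, and P21 at 3.46 and P24 at 1.84 were the high treated libraries. The log2 difference was -0.22 (SE 0.57, 95% interval -1.43 to 0.98; limma, adjusted p = 0.890). Without P16 the estimate was 0.25.

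CD79B was above 0.5 RPKM in 2 libraries only, both vehicle males. It read 0.0173, 1.13, 0.126, 0.754 and 0.0517 RPKM in vehicle libraries P13 to P17, and 0 to 0.201 (median 0.149) in 1,25 NP libraries. The vehicle total was 88 reads and the treated total 51 reads, so single libraries rest on 0 to 40 reads. All 8 treated libraries lay below the vehicle mean, which P14 and P16 carry, and the 3 vehicle females lay inside the treated range. The log2 difference of the group means was -0.38 (two-sided exact permutation p = 0.191 over all 1287 assignments of libraries to groups). It was -0.13 without P14, -0.23 without P16 and -0.55 without P13.

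The transcription factors were the 2 lowest genes of the list. PAX5, which commits precursors to the B lineage, read 0.00778, 0.653, 0.00608, 0.117 and 0.0116 RPKM in vehicle libraries P13 to P17 and 0.00242 to 0.130 (median 0.0323) in 1,25 NP libraries. P14 alone held 205 of the 269 vehicle reads of PAX5. P42 at 0.130 RPKM was the second highest library. The log2 difference was -0.20 (exact permutation p = 0.347), and it was 0.021 without P14.

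POU2AF1, a lymphoid coactivator of octamer-binding factors needed for germinal centres, read 0.00534, 0.542, 0.0835, 0.327 and 0.0159 RPKM in vehicle libraries. In treated libraries it ran from 0 to 0.353 (median 0.0668), with P31 the high one. P14, P31 and P16 were the 3 highest libraries, from both groups. The log2 difference was -0.17 (exact permutation p = 0.409), and -0.0092 without P14.

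Of the secretory genes, JCHAIN was well covered and MZB1 was not. JCHAIN encodes the joining chain of polymeric IgA and IgM and is a product of antibody-secreting cells. It read 0.595, 5.76, 3.86, 7.09 and 0.597 RPKM in vehicle libraries P13 to P17, and 0.643 to 8.85 (median 2.21) in 1,25 NP libraries. The groups covered the same range, with P24 at 8.85 above every vehicle library. The means were 3.58 ± 2.96 RPKM (SD, n = 5) and 3.29 ± 2.99 (SD, n = 8), a log2 difference of -0.06 (SE 0.62, 95% interval -1.37 to 1.25; limma, adjusted p = 0.978). Its sign turned with the scaling, to 0.026 under median-of-ratios scaling and 0.082 in voom on recovered reads. The JCHAIN row (chromosome 8, 67439218 to 67494980 in the file) overlaps that of UTP3 (67476089 to 67479001), a gene of ribosome biogenesis with 224 to 944 reads per library beside 100 to 1482 for JCHAIN.

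MZB1, an endoplasmic reticulum protein that assists antibody assembly, read 0.315, 1.19, 0.657, 2.00 and 0.145 RPKM in vehicle libraries P13 to P17. Its treated values ran from 0.133 to 0.644 (median 0.343), and all 8 lay below the vehicle mean. P14, P16 and P15 were the 3 highest libraries, while P13 and P17 lay inside the treated range. The means were 0.861 ± 0.750 RPKM (SD, n = 5) and 0.346 ± 0.174 (SD, n = 8), and the log2 difference was -0.54 (exact permutation p = 0.0971). It was -0.77 without the vehicle library P17 (exact permutation p = 0.0162) and -0.28 without P16 (exact permutation p = 0.305). P17 was the lowest vehicle library. With any other library left out, the exact permutation p ran from 0.0525 to 0.305.

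Antibody transcripts themselves were covered by 7 immunoglobulin segment rows of the table, 6 variable and 1 constant, chosen by the biotype the table gives. Their reads summed to 1.49, 23.9, 43.4, 30.5 and 0.241 reads per 1000000 in vehicle libraries P13 to P17, and to 0.301 to 7.63 (median 3.86) in 1,25 NP libraries. P14, P15 and P16 lay above every treated library, P13 lay among the low treated ones, and P17 lay below every treated library. The sums followed JCHAIN over the 13 libraries with a Spearman correlation of 0.75, given as a description. Segment rows resemble each other and reads may be split or lost between them.

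**Figure D3:**
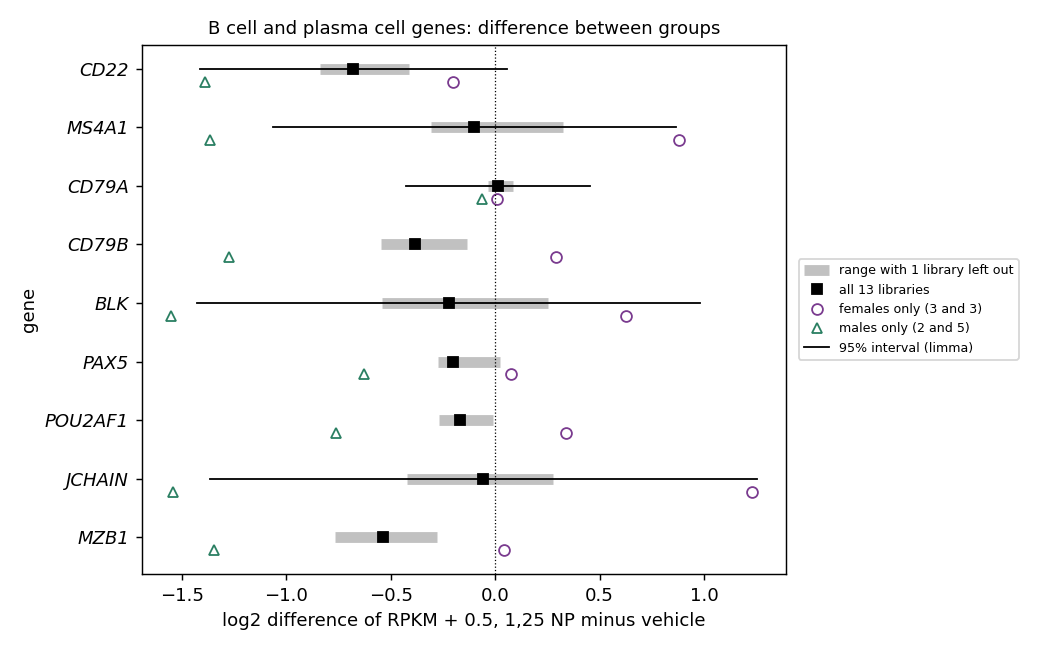
Log2 difference of RPKM + 0.5, 1,25 NP minus vehicle, for the 9 genes (horizontal axis), with black squares for all 13 libraries, lines for the limma 95% interval of the 5 fitted genes, grey bars for the range when 1 library is left out, and open symbols for females and males alone. Every interval includes 0, and for 8 genes the estimate in males lies below -0.6 while that in females lies between -0.20 and 1.23.

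Of the 9 genes, 5 passed the filter of more than 0.5 RPKM in at least 5 libraries: CD22, MS4A1, CD79A, BLK and JCHAIN. None of the 5 was called at an adjusted p below 0.05, and neither was any of the 14579 rows tested (limma, 0% called). At an unadjusted p below 0.05, 0 of the 5 stood beside 585 rows (4.01%), of which 468 (3.21%) were lower in 1,25 NP. There was 1 of the 5, CD22, in 4 alternatives: voom with quality weights, sex as covariate, and without P17 or P24. Of the 14579 rows, 1914 were below that p with quality weights, 552 with sex as covariate, 376 without P17 and 415 without P24. The log2 difference was below 0 in 4 of the 5, beside 56.2% of all rows. Their median was -0.10, beside -0.071 over all rows tested. Without CD79A it was below 0 in 4 of 4, with a median of -0.16. With sex as covariate it was below 0 in 5 of 5, with a median of -0.22, beside a median of -0.068 over all rows. Without the filter it was below 0 in 8 of 9, beside 55.5% of 27174 rows, again with 0 called (0%). The count rested on single libraries: without P16 it was 1 of 5, and without P14, P22, P23 or P28 it was 2 of 5. The median ran from -0.42 without P17 to 0.087 without P16, beside -0.050 and -0.048 over all rows. No gene of the list had groups that did not overlap, beside 14 of the tested rows (0.096%).

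For most of the list, levels differed widely between libraries of the same group. In 8 of 9 genes, CD79A being the exception, both vehicle males lay above all 3 vehicle females. Of the genes past the filter, CD22, MS4A1, BLK and JCHAIN had this order, beside 8.66% of all rows past the filter. P16 was among the 3 highest libraries for 8 genes and P14 for 6. P28 was among the 5 lowest libraries for all 9 genes, and P17 and P23 for 8 each. Of the 8 genes other than CD79A, P16 was among the 3 highest for 7 and P14 for 6, and P28 and P17 among the 5 lowest for 8 and P23 for 7. Both groups therefore held low libraries: P28 and P23 are treated males, P17 and P13 vehicle females. P24, a treated female, was among the 5 highest for 8 genes and P42, a treated male, for 6.

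**Figure D4:**
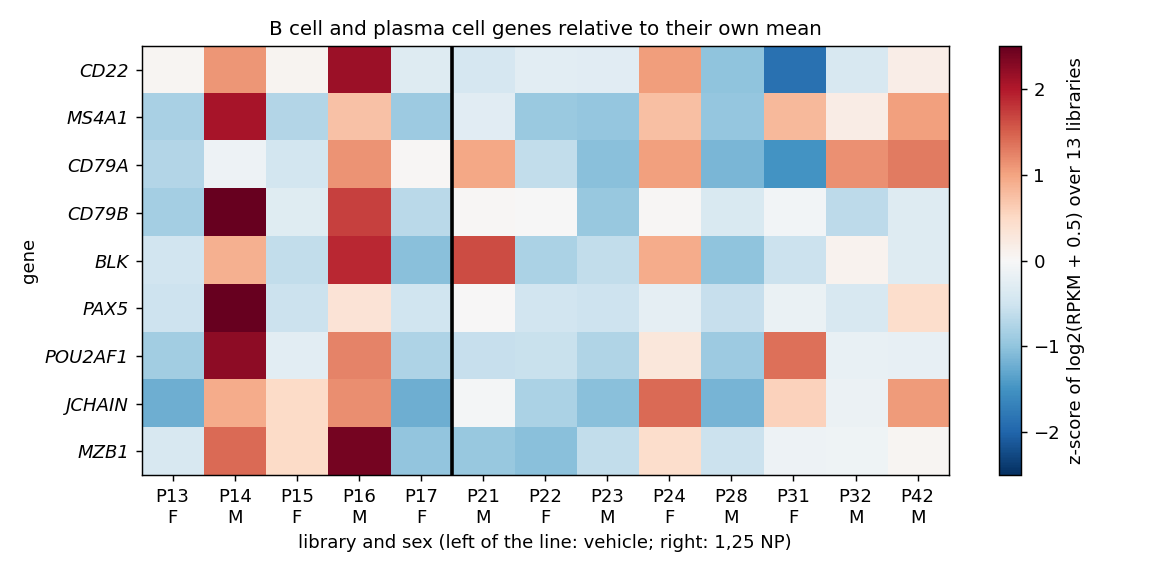
Level of the 9 genes (rows) in the 13 libraries (columns, F or M for sex, vehicle left of the black line) as z-scores of log2(RPKM + 0.5) over the libraries, with the colour scale ending at ±2.5. The vehicle males P14 and P16 are high for most genes, P24 and P42 are moderately high, and P28 is low throughout.

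Set out by sex, the difference between groups had opposite signs for 8 of the 9 genes, CD22 being the exception, beside 45% of 27174 rows. The female difference was near 0 for CD79A (0.01), MZB1 (0.04) and PAX5 (0.07). For JCHAIN the 3 vehicle females lay at 0.595 to 3.86 RPKM and the 3 treated females at 1.04 to 8.85, a log2 difference of 1.23. The 2 vehicle males lay at 5.76 to 7.09 and the 5 treated males at 0.643 to 6.43, a log2 difference of -1.55. For MS4A1 the differences were 0.88 in females and -1.37 in males, and for BLK 0.63 and -1.55.

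The interaction of sex and treatment (male minus female log2 difference, limma) was -2.25 (SE 0.72, 95% interval -3.80 to -0.70) for MS4A1, -2.78 (SE 1.10, -5.14 to -0.41) for JCHAIN and -2.18 (SE 0.94, -4.21 to -0.15) for BLK. It was -1.19 (SE 0.65, -2.58 to 0.20) for CD22 and -0.07 (SE 0.47, -1.08 to 0.94) for CD79A. None passed over all rows (adjusted p = 0.824 for MS4A1, JCHAIN, BLK and CD22, 0.960 for CD79A; 0% of 14579 rows called). At an unadjusted p below 0.05, 3 of 5 stood beside 2.92% of rows, or 2.2% with the same sign, and 5 of 5 were below 0 beside 55.7%. The contrast in males rests on 2 vehicle libraries. In CD79B, PAX5 and POU2AF1, below the filter, every treated female lay above the mean of the vehicle females and every treated male below that of the vehicle males. That pattern, with logged values, was present in 1.25% of 27174 rows. The vehicle females held only 1 to 7 reads of CD79B, 3 to 6 of PAX5 and 1 to 15 of POU2AF1. The 3 genes were also correlated with each other (Pearson r 0.77 to 0.85), so they are not separate observations.

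The genes moved together from library to library. Over 36 pairs the Pearson correlation of log2(RPKM + 0.5) had a median of 0.62 and ran from 0.10 to 0.87. At an adjusted permutation p below 0.05, 20 pairs passed by Pearson, 16 by Spearman and 13 by both. The share of pairs of other genes that would pass was not computed, so these counts cannot be called particular to the list. For MS4A1 and POU2AF1 the Pearson r was 0.87 (permutation p adjusted over 36 pairs = 0.0018, n = 13) and the Spearman rho 0.86 (adjusted p = 0.00648). It was 0.89 without P14 and P42, the libraries farthest from the median of MS4A1. MS4A1 and JCHAIN, a B cell surface gene and a secretory gene, had an r of 0.83 (adjusted permutation p = 0.0078) and a rho of 0.80 (adjusted permutation p = 0.0144), with an r of 0.86 without the same libraries.

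Some other strong pairs changed little without the farthest libraries of their first gene. MS4A1 with PAX5 went from 0.80 to 0.74 and CD22 with MZB1 from 0.76 to 0.79. PAX5 with POU2AF1 went from 0.77 to 0.73 and JCHAIN with MZB1 from 0.74 to 0.72. Others fell further: MZB1 with POU2AF1 went from 0.77 to 0.52 without P14 and P16, and CD22 with BLK from 0.66 to 0.50 without P16 and P31. Some pairs with CD79B rested on P14 and P16. For CD79B and PAX5 the r of 0.85 (adjusted permutation p = 0.0107; rho 0.68, adjusted permutation p = 0.0334) became 0.42 without them. For CD79B and MZB1 the r of 0.78 (adjusted permutation p = 0.0220; rho 0.46, adjusted permutation p = 0.154) became 0.14. The 8 pairs with the CD79A row had a median r of 0.38 and 1 passed, CD79A with BLK at 0.66 (adjusted permutation p = 0.0352). The 28 pairs without it had a median of 0.66 and a range of 0.38 to 0.87, and 19 passed.

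With group means removed the median r was 0.64 and 20 pairs passed. Within the 8 treated libraries it was 0.39, from -0.30 to 0.95, and 0 of 36 pairs passed by the exact permutation test. The highest treated pair was MS4A1 and JCHAIN (r 0.95, adjusted exact permutation p = 0.0857, n = 8). Within the 6 females the median was 0.57 and within the 7 males 0.69, with 0 pairs passing in either. These sets hold fewer libraries than the full comparison, and whether the relation differs between them was not tested.

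**Figure D5:**
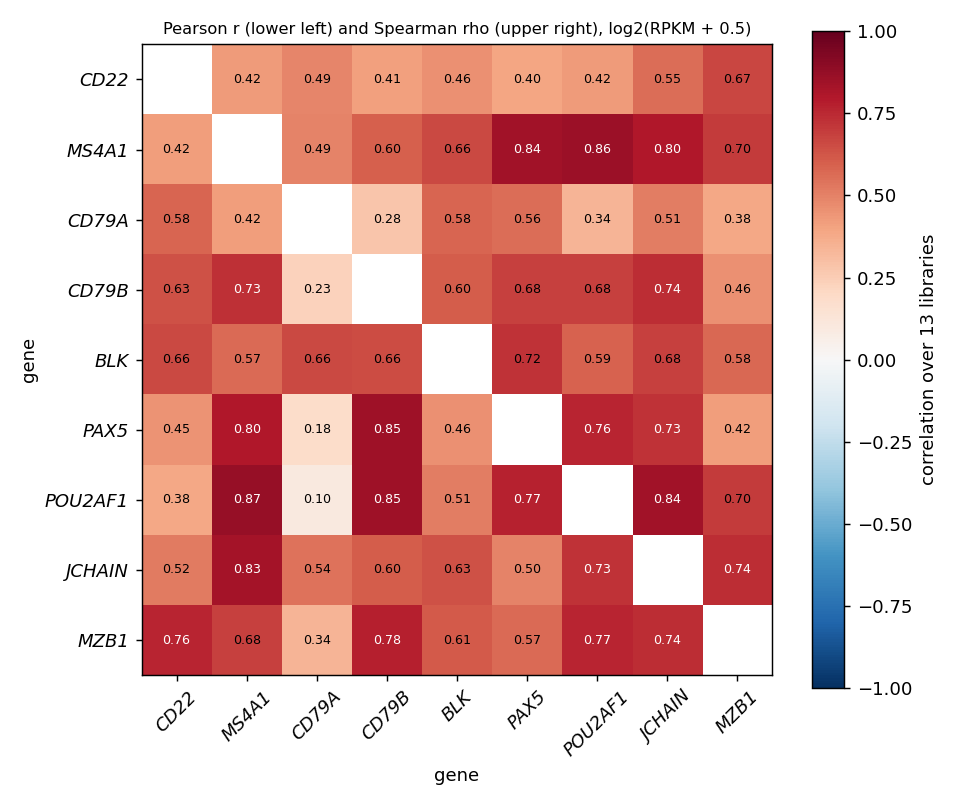
Correlation between the 9 genes over the 13 libraries on log2(RPKM + 0.5), with Pearson r below the diagonal and Spearman rho above it, coloured from -1 to 1. MS4A1, JCHAIN and POU2AF1 stand at 0.73 to 0.87 with each other, and the CD79A row has the palest values, down to 0.10 with POU2AF1.

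Among 11374 other protein-coding genes past the filter, those most like the mean z-score of the 5 fitted genes over the 13 libraries were RASGRP1 (Pearson r 0.98), TXK (0.97), PRKCQ (0.96), PRKCB (0.96), IL2RG (0.95), DOCK8 (0.95), STK4 (0.95), RAC2 (0.95), DENND2D (0.95) and SASH3 (0.94). They were chosen for that likeness, so the correlations are a description. RASGRP1 ranged between 0.158 and 6.24 RPKM in vehicle libraries and between 0.0296 and 5.22 in treated ones. IL2RG, the shared chain of several interleukin receptors, ranged between 5.56 and 65.5 RPKM and between 2.58 and 31.5. Without CD79A, 6 of the 10 were again among the 10 most alike, led by TXK at 0.98.

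T cell markers moved with the list. Their 10 genes, all in the table and none at 0 throughout, summed to 16.4 to 85.2 RPKM in vehicle and 12.9 to 91.6 in treated libraries. The log2 sum had a Pearson correlation of 0.88 (0.87 without CD79A) with the mean z-score of the fitted B lineage genes over the 13 libraries, given as a description. Of the named markers, the CD3 chain CD3D had a vehicle mean of 4.82 ± 5.50 RPKM (SD, n = 5) and a treated mean of 3.61 ± 3.52 (SD, n = 8). CD3E had 2.25 ± 2.59 and 1.82 ± 1.72, and CD3G 16.2 ± 5.61 and 21.7 ± 8.53. Macrophage genes, 8 of 8 in the table, summed to 288 to 1508 RPKM in vehicle and 283 to 893 in treated libraries, with a correlation of 0.098 (0.051 without CD79A) to the same score. The 5 smooth muscle genes had a correlation of -0.57 (-0.60 without CD79A). Erythrocyte genes, 4 of 5 in the table, summed to 18.2 to 4392 RPKM in vehicle and 5.64 to 68.8 in treated libraries, with the highest value in P17, one of the libraries low in B lineage genes. The part of other cells in the B lineage levels was not tested.

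Other genes of the lineage were described from lists. Beside each list stand all 14579 rows tested, with 56.2% of differences below 0 and a median of -0.071. Of 36 further B cell identity genes, 30 were in the table and 23 passed the filter. None was called, 4 had a difference above 0 and 19 below, and the median was -0.25. The smallest p belonged to CD83, a surface protein of activated B cells and dendritic cells, with 7.09 ± 1.94 RPKM in vehicle and 4.46 ± 1.15 in treated veins (log2 -0.61, SE 0.25; limma, adjusted p = 0.795). TLR9, a sensor of unmethylated DNA, had 0.700 ± 0.313 and 0.393 ± 0.241 RPKM, and SPI1, a factor shared by B cells and macrophages, 12.9 ± 7.99 and 7.24 ± 2.88. TCL1A was listed at 0 in every library.

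All 27 genes of B cell receptor signalling passed the filter. None was called, 5 differences were above 0 and 22 below, and the median was -0.25. PIK3CD, the catalytic subunit of a lymphocyte phosphoinositide kinase, had 3.23 ± 2.04 RPKM in vehicle and 1.50 ± 0.792 in treated veins (log2 -0.80, SE 0.37; limma, adjusted p = 0.795), with 8 of 8 treated libraries below the vehicle mean. NFATC1, a calcium-driven transcription factor, had 4.34 ± 1.01 and 2.96 ± 1.13 RPKM, and CD81, a tetraspanin, 65.6 ± 26.8 and 41.8 ± 22.1. Most of these genes are also used by other leukocytes or by vessel wall cells.

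The genes of plasma cell differentiation and antibody secretion had their median on the other side of 0. Of 21, 19 were in the table and 15 passed the filter, with 10 differences above 0, 5 below, a median of 0.15 and none called. HSP90B1, an endoplasmic reticulum chaperone of all secretory cells, had 90.7 ± 21.9 RPKM in vehicle and 187 ± 93.6 in treated veins (log2 0.91, SE 0.36; limma, adjusted p = 0.795). SEC11C, a signal peptidase subunit, had 9.03 ± 2.93 and 14.9 ± 5.79 RPKM, and PDIA4, a disulfide isomerase, 39.7 ± 7.79 and 53.8 ± 16.4. Among the 10 above 0 were also PRDM1 (0.15), XBP1 (0.23) and SDC1 (0.16), and among the 5 below IRF4 (-0.39) and PIM2 (-0.38). Genes of this list below the filter had lower treated means, with overlapping groups. They were TNFRSF17 (0.310 and 0.173 RPKM), DERL3 (0.285 and 0.156), CCR10 (0.178 and 0.119) and PIGR (0.0550 and 0.0216). The summed level of this list had a correlation of 0.12 (0.071 without CD79A) with the score of the fitted genes over the 13 libraries, beside 0.83 (0.79) for the receptor signalling list.

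Of 10 survival ligands and receptors, 6 passed the filter, with 4 differences above 0, 2 below, a median of 0.14 and none called. TNFRSF13C, the receptor for the B cell survival factor BAFF, had 1.95 ± 1.03 RPKM in vehicle and 1.01 ± 0.660 in treated veins (log2 -0.68, SE 0.38; limma, adjusted p = 0.795). IL10 and IL6, cytokines that promote antibody production, were on the other side of 0, with log2 differences of 0.52 (SE 0.35) and 0.95 (SE 0.82; limma, adjusted p = 0.795 for both). IL10 had 0.799 ± 0.548 and 1.43 ± 1.05 RPKM, and IL6 4.26 ± 3.18 and 17.7 ± 27.8. Of 14 genes of lymphoid chemotaxis, 7 passed, with 1 difference above 0, 6 below, a median of -0.50 and none called. CCL19, a chemokine that draws lymphocytes into lymphoid tissue, had 67.5 ± 42.1 and 39.2 ± 30.0 RPKM, and the lymphocyte egress receptor S1PR1 18.4 ± 2.26 and 13.1 ± 4.85. CXCL12, which retains B lineage cells in bone marrow, had 28.6 ± 9.44 and 21.7 ± 11.9 RPKM. FCER2, the low-affinity IgE receptor of B cells and follicular dendritic cells, lay at 0.0156 to 1.64 RPKM (median 0.0250) in vehicle libraries. In treated libraries it lay at 0.00687 to 0.187 (median 0.0334). Of its 225 vehicle reads, 200 were in 1 library.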

How the data were processed

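The authors deposited a table of RPKM values per gene for 13 libraries, with a ratio and a p-value per gene that were not used. The header names no unit. The values are RPKM by their own arithmetic, since value × (length + 1) gave whole reads for 100% of values (tolerance 0.01 reads) and the step of each library matched the sum of its reads. TruSeq V2 libraries were made, per the labels' protocols. The sources used here name no aligner, counter, annotation, strand setting or pig build. The labels' treatment text describes mice and the submitters' processing notes list a mouse build, so neither was used.

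Column names give the group, a code and a sex letter, and columns were assigned to groups only. Of 14012 rows without a symbol, 785 were named from a reference list. limma 3.58.1 (R 4.3.3) with a mean-variance trend was fitted to log2(RPKM + 0.5) of the 14579 rows that exceeded 0.5 RPKM in 5 or more libraries. P-values were adjusted over those rows (Benjamini-Hochberg, threshold 0.05). Differences on this scale understate the change of low genes. Genes below the filter were compared by exact permutation, which can reach p = 0.000777. Pairs were correlated with 100000 resamples, the smallest possible p being 1e-05. Scripts were tested on simulated data. The 95% intervals cover the spread between libraries, and the floors of 3 reads cover counting error only.

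The members and the lists were chosen with earlier results of these data known. All 9 members are named, with the 3 smallest p-values per further list, up to 3 markers of a cell type and the 10 genes most like the fitted members. TCL1A and FCER2 were added after their values were seen. Alternatives covered pseudocount, filter, scaling, voom, sex and each library left out.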

Additional observations from a re-analysis of the deposited data

Results flagged for a closer look

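Of 68 groups of libraries checked for a value far from the rest, 3 held one. Chance gives about 1 in 20. PAX5 was 0.653 RPKM in vehicle library P14, with the other 4 at 0.00608 to 0.117. POU2AF1 was 0.353 RPKM in 1,25 NP library P31, with the other 7 at 0 to 0.160. IL6, an inflammatory cytokine that supports plasma cells, was 83.1 RPKM in 1,25 NP library P32, with the other 7 at 0.977 to 25.2.

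In 3 genes below the filter every treated female lay above, and every treated male below, the mean of the vehicle libraries of the same sex. The male minus female log2 difference was -1.56 for CD79B, -0.70 for PAX5 and -1.10 for POU2AF1. For these 3 genes the difference between the sexes was not tested, and the males include 2 vehicle libraries. The vehicle females held only 1 to 7 reads of CD79B, 3 to 6 of PAX5 and 1 to 15 of POU2AF1.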

How the results depend on the processing

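In the fits across rows no member tested was called under any of the 22 alternatives, which tested 3 to 9 of the 9, and the CD22 difference stayed between -0.84 and -0.41. Tested members below 0 numbered 8 of 9 with no filter, 2 of 3 with a filter of 1 RPKM, and 1 to 5 of 5 with 1 library left out (1 without P16). JCHAIN turned to 0.026 with median-of-ratios scaling, 0.082 with voom, 0.076 with voom on rows of at least 10 reads in 5 libraries (added after seeing the data), and ran from -0.42 to 0.28 with 1 library left out. BLK was 0.0011 in that added fit and -0.54 to 0.25 with 1 left out. CD79A was -0.027 with sex as covariate and -0.033 to 0.087 with 1 left out. With 1 left out, MS4A1 ran from -0.31 to 0.33, PAX5 from -0.28 to 0.021, and the sex interaction of CD79A from -0.23 to 0.11. With quality weights in voom MS4A1 was -1.23. MZB1, below the filter, had an exact permutation p of 0.0162 without P17 (log2 -0.77), and of 0.0525 to 0.305 with any other library left out. The cause of these turns was not tested.

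The 20 correlated pairs became 13 under median-of-ratios scaling and 11 to 28 with 1 library left out (12 without P14, 11 without P16, 13 without P28, 28 without P31). In the treated libraries alone 0 passed and the median r was 0.39, and 0 passed in the females or the males alone, splits added after seeing the data. Single libraries held 0 to 40 reads of CD79B and 4 to 70 of MZB1, which limits the precision of their values. No paired analysis was possible because the columns carry codes and sex letters and no replicate number.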
